A study of Arabidopsis thaliana with 8 samples.

Results

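The nuclear genes of the photosynthetic light reactions were examined in leaf messenger RNA of Arabidopsis thaliana, as 48 of the 22546 loci listed in the count files. The genes were chosen by locus identifier from the nuclear genes for antenna proteins (LHCA, LHCB), photosystem subunits (PSA, PSB), plastocyanin, ferredoxin, the Rieske protein and ATP synthase. They are a list and not a complete set of these genes. They comprise 6 genes of the photosystem I (PSI) antenna, 14 of the photosystem II (PSII) antenna, 12 of the PSI core, 9 of the PSII core and its oxygen-evolving complex, 4 of electron carriers, 2 of ATP synthase, and PSBS. All 48 were listed in all 8 libraries and passed the filter on low counts in each comparison. The libraries form 4 groups of 2: dcl1 with HD adapters, dcl1 with standard Illumina (IL) adapters, wild type (wt) with HD adapters and wild type with IL adapters. dcl1 plants are mutant in DICER-LIKE 1, which processes the precursors of microRNAs; the allele and the plant age are not stated. HD adapters carry random bases at the ligated end, and IL adapters have a fixed sequence. All plants grew untreated at 25 °C by day and 18 °C by night with 16 hours of light. According to the series' design text both kinds of library were made from the same RNA, so the 8 libraries stem from 4 RNA samples, 2 for each genotype. No label says that the samples of a genotype came from separate plants, so p-values reflect the spread among these particular samples alone, possibly a technical one.

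In the light reactions, antenna proteins that bind chlorophyll pass excitation energy to PSII, which oxidises water, and to PSI, which reduces ferredoxin. The cytochrome b6f complex and plastocyanin carry electrons between the photosystems, and ATP synthase uses the proton gradient that this flow builds up. The reaction centre subunits are largely encoded in the chloroplast, whereas the antenna and most peripheral subunits are encoded in the nucleus, often by small gene families, and are among the most strongly expressed genes of a green leaf.

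Library totals ran from 15772958 to 45929383 counts, and 4 annotated ribosomal RNA loci took 17.3% to 28.7% of them. DCL1 messenger RNA was at 22.2 and 25.7 CPM in dcl1 HD, 24.1 and 21.2 in dcl1 IL, 20.3 and 21.2 in wt HD and 21.3 and 20.2 in wt IL libraries (summed log2 fold change 0.14, SE 0.17, edgeR adjusted p = 0.701), and so it gives no check on which libraries are mutant. CPM here is the read count scaled to library size with TMM factors. Markers of mesophyll, the main photosynthetic leaf tissue (RBCS1A, RBCS3B, RCA, CHLH), summed to 21799 to 24109 CPM in dcl1 and 19280 to 25797 CPM in wt libraries. These genes also belong to the lists of carbon fixation and chlorophyll synthesis below. Their sum therefore does not separate the amount of mesophyll from the expression of photosynthesis genes. The 13 markers of guard cells, epidermis, trichomes, vasculature, root, flower and seed summed to 221 to 257 CPM in dcl1 and 232 to 276 CPM in wt libraries. The seed marker CRU3 was at 0 in all 8. The floral marker AP3 was at 0 except for 0.03 CPM in dcl1 IL replicate 2. The other floral marker, AG, was at 0 to 0.12 CPM over the 8 libraries, and the root marker PYK10 at 0 to 1.55 CPM. Of these markers, the epidermal gene PDF1 was at 1.197 to 6.61 CPM in dcl1 against 14.5 to 20.7 CPM in wt libraries (summed log2 fold change -2.50, edgeR adjusted p = 0.000474). The guard cell gene MYB60 was at 2.73 to 6.01 CPM in dcl1 against 5.79 to 9.03 CPM in wt libraries (-1.02, adjusted p = 0.0382). The other epidermal marker, ATML1, was at 41.7 to 49.9 CPM in dcl1 and 44.1 to 46.8 CPM in wt libraries. For guard cells, KAT1 was at 3.50 to 11.2 CPM in dcl1 and 3.61 to 8.49 CPM in wt libraries. FAMA was at 7.15 to 11.2 CPM in dcl1 and 12.3 to 15.2 CPM in wt libraries. Of the 10 markers tested, 4 had positive and 6 negative summed folds. The part of these marker differences in the results below was not tested.

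The wild-type replicates stood apart from each other for the light-reaction genes. In wt, replicate 1 exceeded replicate 2 at 46 of the 48 genes with HD adapters and at 45 of 48 with IL adapters, whereas over all tested loci it did so at 48.9% and 50.3%. In dcl1, replicate 1 was the higher at 15 of 48 genes with HD and at 23 of 48 with IL adapters (52.4% and 47.8% of all tested loci). The counts of negative folds, the medians of the larger complexes and the folds of the called genes that rest on wt replicate 1 are therefore also given without it. Counts of genes whose libraries do not overlap are given with all libraries only.

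The 48 genes took 16.8% and 18.4% of all counts in the dcl1 HD libraries and 17.7% and 20.2% in the dcl1 IL libraries, against 20.2% and 18.3% in wt HD and 23.6% and 21.6% in wt IL libraries. Without the ribosomal RNA loci, the shares were 23.1% and 23.1% in dcl1 HD and 24.9% and 25.6% in dcl1 IL, against 27.3% and 25.0% in wt HD and 28.5% and 26.8% in wt IL libraries. On this second reckoning both dcl1 libraries of each adapter lay below both wt libraries of that adapter. Shares of a bulk sample do not separate fewer cells of a type from less RNA per cell.

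Per kilobase of exon, light-reaction genes held 5 of the 10 highest mean levels among all tested loci, 11 of the top 20, 30 of the top 50 and 41 of the top 100. The LHCB1 genes, which encode the main trimeric antenna of PSII, were the highest, led by LHCB1.3 at 23517 CPM per kb (rank 6). In the PSI antenna LHCA4 led at 5163 CPM per kb, in the PSI core PSAL at 3384, in the PSII core PSBR at 3775, among the carriers PETE2 at 2009.8 and in ATP synthase ATPC1 at 746. The lowest were LHCB4.3, a variant gene of the minor antenna CP29, at 22.95 CPM per kb (rank 2711), LHCA6 at 92.3 and LHCA5 at 102. LHCA5 and LHCA6 encode rare antenna proteins that join PSI to the NDH complex of cyclic electron flow, and they lay far below LHCA1 to LHCA4, whose lowest member, LHCA3, was at 3486 CPM per kb. LHCB2.3, at 427 CPM per kb, was likewise well below LHCB2.1 and LHCB2.2, at 3148 and 3613.

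**Figure D1:**
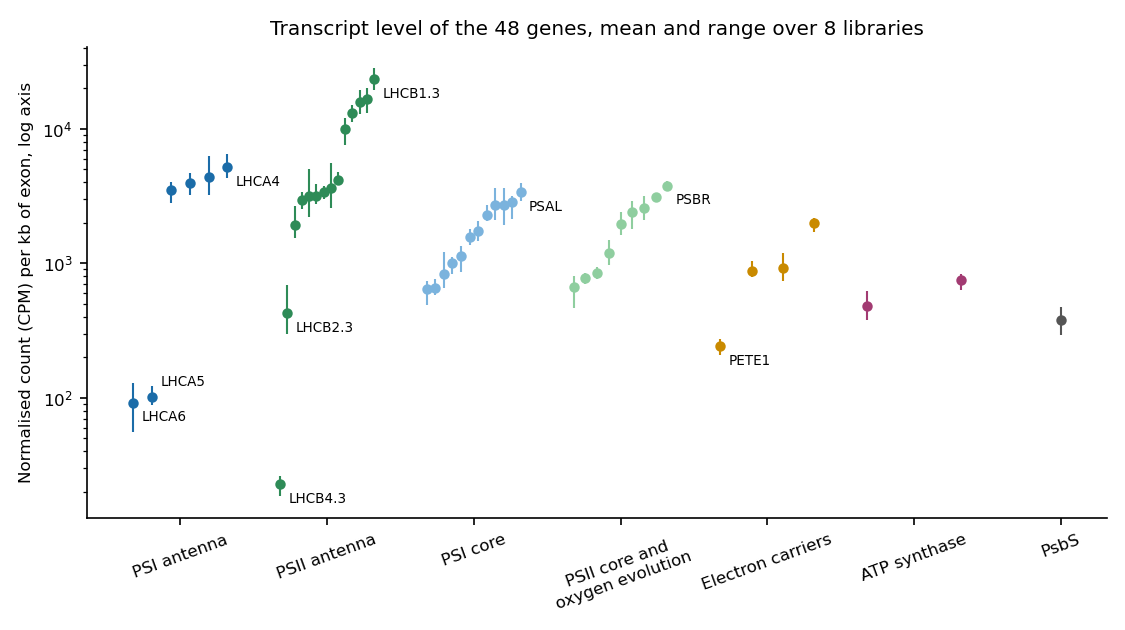
Mean transcript level of each of the 48 genes in CPM per kilobase of exon (log axis), by complex; points are means over the 8 libraries and lines run from the lowest to the highest library. LHCB1.3 lies highest, at 23517 CPM per kb, and LHCA5, LHCA6 and LHCB4.3 lie below the other antenna genes.

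The sequences before the starts of the LHCB2 genes and LHCA6 are shown because these genes had the largest genotype differences within their antennae in the sums. Each is the 250 bases upstream of the annotated start in the TAIR10.1 genome of RefSeq, written 5′ to 3′ on the gene's strand. Capitals mark matches, on either strand, to the G-box CACGTG, the I-box GATAAG, the motif spelled CCAATC, the TATA box TATAAA or the evening element AAAATATCT. LHCB2.1 lies at chr2:1824481-1824730 (minus strand), LHCB2.2 at chr2:1800473-1800722 (minus strand), LHCB2.3 at chr3:10255656-10255905 (plus strand) and LHCA6 at chr1:6612380-6612629 (plus strand).
LHCB2.1: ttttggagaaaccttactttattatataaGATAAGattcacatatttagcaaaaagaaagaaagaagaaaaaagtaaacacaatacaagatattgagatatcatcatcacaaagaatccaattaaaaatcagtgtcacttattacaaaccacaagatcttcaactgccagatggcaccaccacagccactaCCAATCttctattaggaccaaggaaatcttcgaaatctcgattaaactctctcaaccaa
LHCB2.2: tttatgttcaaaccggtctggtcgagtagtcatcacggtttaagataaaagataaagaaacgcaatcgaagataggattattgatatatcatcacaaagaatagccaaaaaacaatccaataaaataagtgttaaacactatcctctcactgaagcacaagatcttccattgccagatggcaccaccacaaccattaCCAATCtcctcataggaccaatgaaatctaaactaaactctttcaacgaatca
LHCB2.3: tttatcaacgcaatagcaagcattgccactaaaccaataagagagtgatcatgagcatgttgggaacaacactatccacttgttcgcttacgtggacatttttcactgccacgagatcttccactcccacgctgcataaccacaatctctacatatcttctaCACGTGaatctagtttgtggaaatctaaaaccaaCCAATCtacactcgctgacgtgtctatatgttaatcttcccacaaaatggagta
LHCA6: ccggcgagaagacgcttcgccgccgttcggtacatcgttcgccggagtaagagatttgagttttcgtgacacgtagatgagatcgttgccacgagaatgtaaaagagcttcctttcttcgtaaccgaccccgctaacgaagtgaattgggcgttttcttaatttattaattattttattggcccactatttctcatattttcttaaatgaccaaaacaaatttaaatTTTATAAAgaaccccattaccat
All LHCB2 genes hold CCAATC within 60 bases of the start, LHCB2.3 alone of them holds the G-box, and in LHCA6 the only matches are a forward and a reverse TATAAA that overlap each other. Over windows of 250 bases before to 50 after the start, CCAATC was present at 18 of the 48 genes (37.5%; 8 of 14 in the PSII antenna) and at 12.3% of all 27443 annotated starts. The I-box was present at 21 genes (43.8%; 8 of 12 in the PSI core) and at 14.6% of all starts, and the G-box at 15 genes (31.2%; 6 of 9 in the PSII core) and at 7.68%. The TATA box, at 23 genes (47.9%), was near the share of all starts (52.1%), as was the evening element, at 2 genes (4.17% against 2.82%). These matches describe letters and say nothing of binding.

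The first comparison asks how these transcripts differ between dcl1 and wild type. Of the 48 genes, 39 had a negative log2 fold change (dcl1 over wt) with HD adapters, 39 with IL adapters and 37 in the sums of the HD and IL library of each genotype and number, against 50.6%, 50.3% and 49.4% of all tested loci; few passed the test one by one. With HD adapters LHCA6 rose and LHCB1.4, LHCB1.5 and LHCB2.3 fell, so that 4 of 48 passed at an edgeR adjusted p under 0.05, where 4.33% of all 19521 tested loci did (2.07% higher, 2.26% lower). With IL adapters LHCA6 rose and LHCB2.3, LHCA1, PSAD1, PSAD2 and PSAF fell, so that 6 of 48 passed, against 4.23% (1.87% higher, 2.36% lower). The labels do not say that a number marks 1 RNA sample, so a sum may join libraries of different RNA. In the sums, LHCA6 rose and LHCB2.3 and PSAF fell, 3 of 48 against 8.85% of 19711 loci (4.3% higher, 4.55% lower), whereas DESeq2 called 10 (1 higher, 9 lower), against 10.6% of all loci. By edgeR 8.33% of the genes passed with HD adapters, 12.5% with IL adapters and 6.25% in the sums, and by DESeq2 20.8% in the sums. DESeq2 called 10.4% with HD and 18.8% with IL adapters, against 6.51% of all loci in each. These shares rest on few genes. Those within an adapter and those by DESeq2 stand above the shares of all loci, and the edgeR share in the sums stands below. With library totals alone the edgeR share with HD adapters was 4.17%, against 4.63% of all loci.

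The median log2 fold change of the 48 genes was -0.19 with HD adapters, -0.16 with IL adapters and -0.17 in the sums, where the medians of all loci were -0.01, 0.00 and 0.01. Both dcl1 libraries lay below both wt libraries at 30 genes with HD adapters (23.3% of all loci did so) and at 26 with IL adapters (24.5%), and above them at 6 (22.5%) and 5 (22.9%). All 4 dcl1 libraries lay below all 4 wt libraries at 11 genes (8.17% of all loci) and above them at 1, LHCA6 (7.64%). Without wt replicate 1 the negative folds numbered 32 with HD, 31 with IL and 30 in the sums, and the medians were -0.09, -0.08 and -0.10. In those fits 50.6%, 49.5% and 50.1% of all loci had positive folds. Without that replicate the calls of LHCB1.4, LHCB1.5, LHCB2.3, LHCA1, PSAD1 and PSAD2 were lost, as was the summed call of PSAF. Without wt replicate 2, 11 genes passed in the sums, where 7.7% of all loci did.

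**Figure D2:**
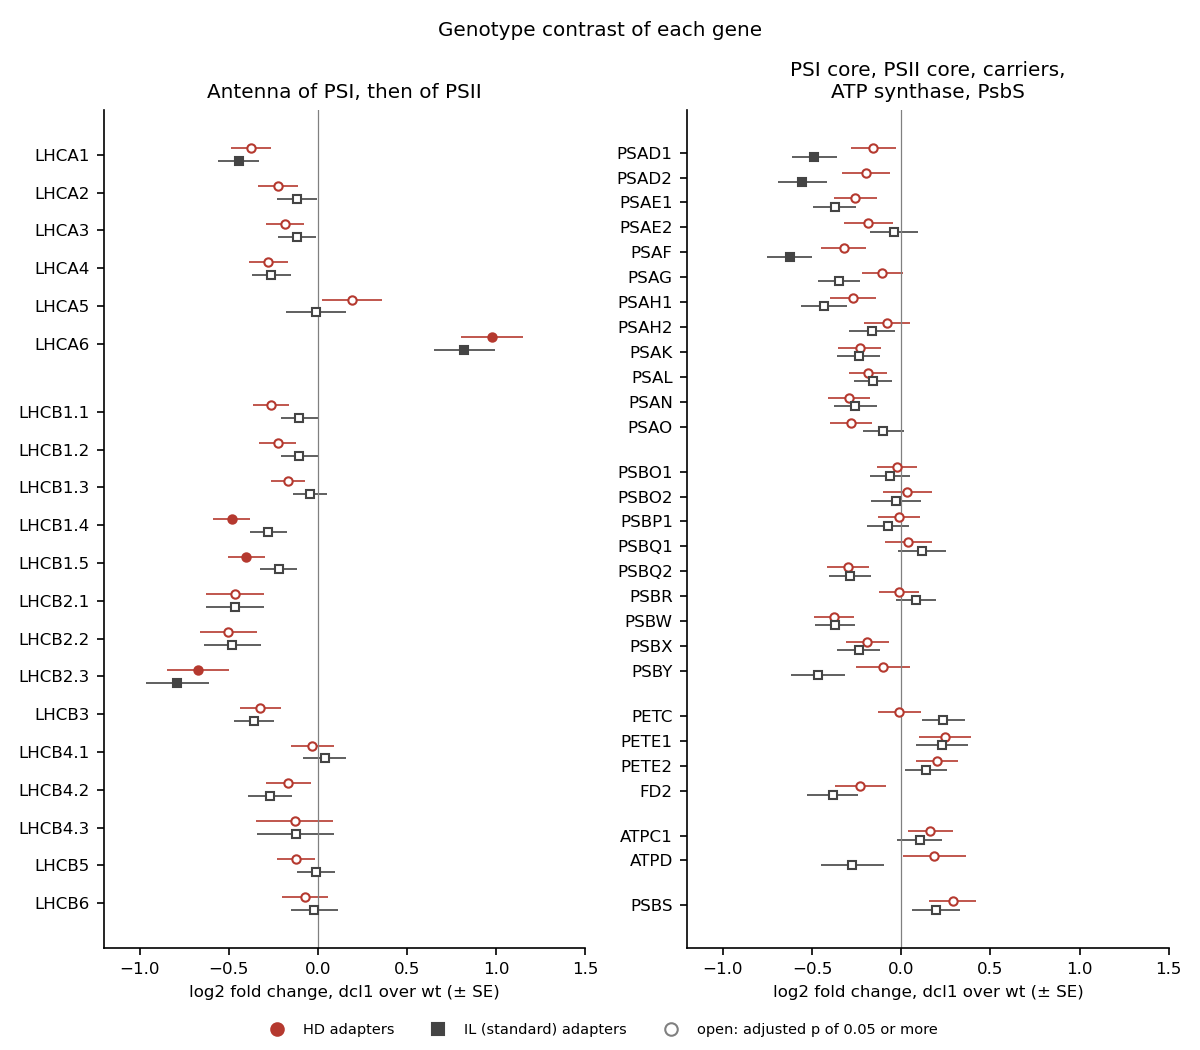
Log2 fold change of dcl1 over wt for each gene, with its SE, with HD adapters (red circles) and IL adapters (dark grey squares); filled symbols passed at an edgeR adjusted p under 0.05. All 12 PSI core genes lie left of 0 with both adapters, and LHCA6 lies farthest to the right, at 0.98 and 0.82.

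In the PSI antenna LHCA6 rose and the other genes had smaller differences. LHCA6 (AT1G19150, chromosome 1, 6612630 to 6613972) was at 139 and 151 CPM in dcl1 HD, 133 and 135 in dcl1 IL, 82.9 and 64.5 in wt HD and 83.7 and 68.3 CPM in wt IL libraries. Every dcl1 library exceeded every wt library. The log2 fold change was 0.98 with HD adapters (SE 0.17, edgeR adjusted p = 0.00139), 0.82 with IL adapters (SE 0.17, adjusted p = 0.00662) and 0.90 in the sums (SE 0.15, adjusted p = 0.00103). The call with IL adapters was lost without wt IL replicate 2 (0.68, adjusted p = 0.113).

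LHCA1 encodes a subunit of the antenna belt bound to PSI. It was at 4077 and 4148 CPM in dcl1 HD, 5316 and 5575 in dcl1 IL, 5786 and 4874 in wt HD and 8033 and 6798 CPM in wt IL libraries, lower in dcl1 within each adapter. It fell with IL adapters, by 0.45 on the log2 scale (SE 0.11, edgeR adjusted p = 0.0242), and had a log2 fold change of -0.37 with HD adapters (SE 0.11, adjusted p = 0.064). The IL call was lost at -0.41 without dcl1 replicate 1, -0.48 without dcl1 replicate 2 and -0.32 without wt replicate 1, with edgeR adjusted p from 0.0686 to 0.264. LHCA2, LHCA3 and LHCA4, the other belt subunits, had log2 fold changes of -0.16, -0.15 and -0.26 in the sums and did not pass, nor did LHCA5, at 0.13.

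The PSII antenna had 14 of 14 negative folds with HD adapters and 13 of 14 with IL adapters, with medians of -0.24 and -0.17; without wt HD replicate 1 the HD count was 12 and the median -0.08. The IL count was 9 without wt IL replicate 1, with a median of -0.07, and 10 without dcl1 IL replicate 1. With library totals as the only scaling the HD count was 12. Summed over its genes, this antenna reached 102959 and 110029 CPM in dcl1 HD and 122236 and 131769 in dcl1 IL, against 141241 and 116335 in wt HD and 150368 and 131840.4 CPM in wt IL libraries. In each adapter both dcl1 sums were below both wt sums, with IL adapters by only a slight margin between dcl1 replicate 2 and wt replicate 2.

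The LHCB2 genes encode the antenna protein whose phosphorylation moves light-harvesting complexes between the photosystems in state transitions, and they had the lowest folds of the antenna with IL adapters and in the sums. LHCB2.3 (AT3G27690, chromosome 3, 10255906 to 10257489) was at 433 and 472 CPM in dcl1 HD, 483 and 491 in dcl1 IL, 849 and 594 in wt HD and 1009 and 674 CPM in wt IL libraries. The 4 dcl1 libraries lay close together and below all wt libraries, and wt replicate 1 was far above wt replicate 2. LHCB2.3 fell by 0.67 with HD adapters (SE 0.17, edgeR adjusted p = 0.0274), by 0.79 with IL adapters (SE 0.18, adjusted p = 0.00993) and by 0.74 in the sums (SE 0.16, adjusted p = 0.00772). Without wt replicate 1 the folds were -0.37 with HD, -0.47 with IL and -0.44 in the sums, and none passed (adjusted p = 0.433, 0.171 and 0.0728). The HD call was also lost without dcl1 HD replicate 1 (-0.60, adjusted p = 0.126) or replicate 2 (-0.73, adjusted p = 0.0722), and with library totals alone (-0.56, adjusted p = 0.0595). An antisense locus, AT3G27700, covers 38.6% of the 50-base words of LHCB2.3 and was counted at 17.1 CPM; whether counting used strand is not stated.

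LHCB2.1 was at 3087 and 3483 CPM in dcl1 HD, 4224 and 4085 in dcl1 IL, 5285 and 3786 in wt HD and 7004 and 4452 CPM in wt IL libraries. LHCB2.2 was at 2931 and 3225 CPM in dcl1 HD, 3831 and 3750.1 in dcl1 IL, 5097 and 3623 in wt HD and 6395 and 4182 CPM in wt IL libraries. Both were lower in dcl1 within each adapter, and in both wt replicate 1 was the highest library of its adapter. The sums gave log2 fold changes of -0.49 for LHCB2.1 and -0.51 for LHCB2.2, and neither passed (edgeR adjusted p = 0.0685 and 0.0535). Without wt replicate 1 these folds were -0.17 and -0.20. These genes share 22.7% and 28.2% of their 50-base words with each other, so their counts may not be separate.

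Of the LHCB1 genes, which form the bulk of the PSII antenna, LHCB1.4 and LHCB1.5 fell with HD adapters. LHCB1.4 was at 9923 and 10988 CPM in dcl1 HD, 11831 and 13020.4 in dcl1 IL, 15904 and 13349.7 in wt HD and 15214 and 14909 CPM in wt IL libraries, so no dcl1 library reached any wt library. Its fold with HD adapters was -0.48 (SE 0.10, edgeR adjusted p = 0.00631), and it was -0.33 without wt HD replicate 1 and -0.40 without dcl1 HD replicate 1, where it did not pass (adjusted p = 0.141 and 0.0654). With IL adapters LHCB1.4 had -0.28 and did not pass (adjusted p = 0.151). LHCB1.5 was at 13611 and 15284 CPM in dcl1 HD, 15814 and 17565 in dcl1 IL, 20826 and 17328 in wt HD and 19818 and 19089 CPM in wt IL libraries, and one dcl1 IL library exceeded one wt HD library. Its HD fold was -0.40 (SE 0.10, adjusted p = 0.0239), and its call was lost without dcl1 HD replicate 1 (-0.31, adjusted p = 0.162), without wt HD replicate 1 (-0.24, adjusted p = 0.384), with library totals alone (-0.29) and with the 4 HD libraries fitted by themselves (adjusted p = 0.0603). All 50-base words of LHCB1.5 also occur in AT2G08665, a locus not in the count files, and 17.3% occur in LHCB1.4.

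The other LHCB1 genes did not pass. With HD adapters LHCB1.1 had a log2 fold change of -0.26, LHCB1.2 of -0.23 and LHCB1.3 of -0.17; with IL adapters they had -0.10, -0.11 and -0.04. These genes lie side by side on chromosome 1, and LHCB1.1 shares 13.9% of its 50-base words with LHCB1.3. LHCB3, which accompanies LHCB1 and LHCB2 in trimers, was at 3429 to 3514 CPM in dcl1 against 3987 to 4819 CPM in wt libraries. Its ranges did not overlap, and its summed fold of -0.33 did not pass (SE 0.13, edgeR adjusted p = 0.118). Of the minor antenna genes, LHCB4.2 had -0.22 in the sums (-0.08 without wt replicate 1), and the others were nearer 0: LHCB4.1 at 0.00, LHCB4.3 at -0.05, LHCB5 (CP26) at -0.06 and LHCB6 (CP24) at -0.03.

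**Figure D3:**
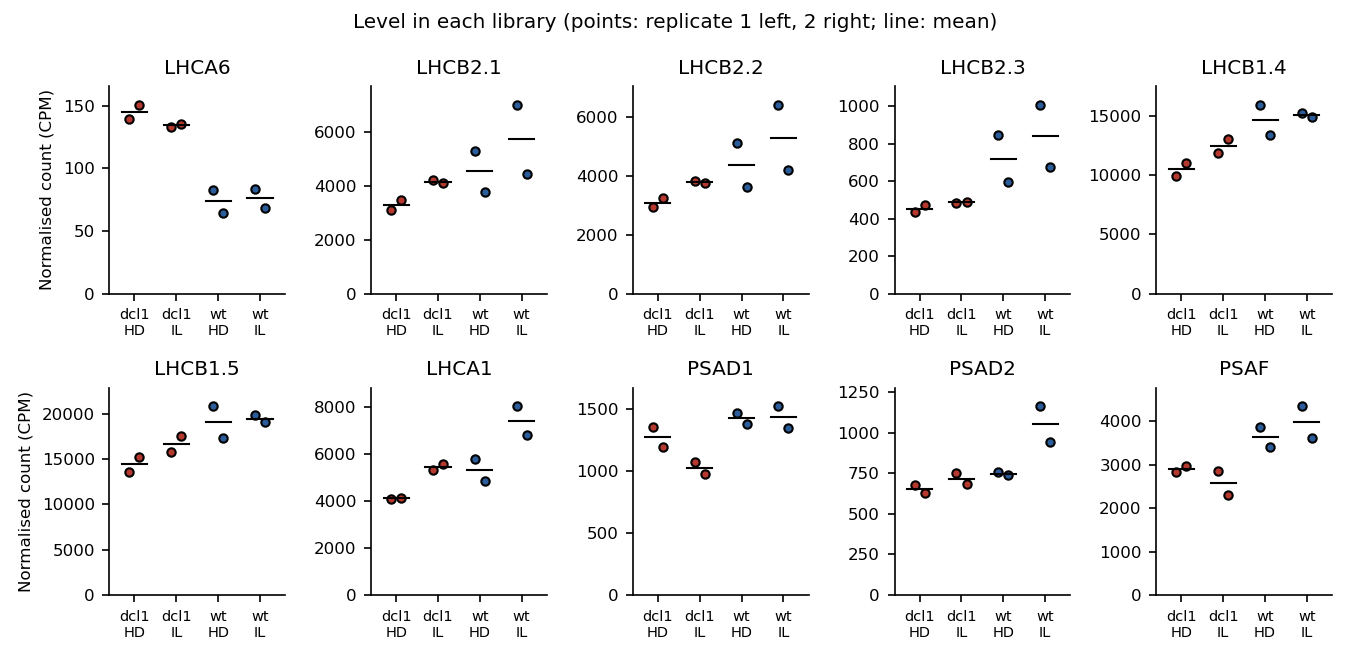
Normalised counts (CPM) of 10 genes in each library, dcl1 in red left of wt in blue, with replicate 1 left of replicate 2 and a line at each group mean; each vertical axis starts at 0. All dcl1 points of LHCA6 lie above the wt points, all dcl1 points of LHCB2.3, LHCB1.4 and PSAF lie below them, and wt replicate 1 is above replicate 2 in all 10 panels.

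The PSI core had negative folds at all 12 genes with HD adapters, with IL adapters and in the sums, with medians of -0.22, -0.30 and -0.25. Without wt replicate 1 all 12 were still negative in the 3 fits, with medians of -0.15, -0.26 and -0.21. The count was 11 with HD adapters under library totals alone, and 11 with IL adapters without dcl1 IL replicate 2 or without wt IL replicate 2. Both dcl1 libraries lay below both wt libraries at 12 of 12 genes with HD adapters (23.3% of all loci) and 11 of 12 with IL adapters (24.5%). All 4 dcl1 libraries lay below all 4 wt libraries at 6 (8.17% of all loci), namely PSAE1, PSAF, PSAG, PSAH1, PSAN and PSAO. Summed over its genes, the PSI core was at 18414 and 18666 CPM in dcl1 HD and 18684 and 17777 in dcl1 IL, against 22394 and 20895 in wt HD and 24035 and 21575 CPM in wt IL libraries.

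PSAF, which docks plastocyanin on the lumenal side of PSI, was at 2835 and 2975 CPM in dcl1 HD, 2848 and 2307 in dcl1 IL, 3867 and 3396 in wt HD and 4338 and 3618 CPM in wt IL libraries (AT1G31330, chromosome 1, 11214676 to 11216141). No dcl1 library reached the lowest wt library. PSAF fell by 0.63 with IL adapters (SE 0.13, edgeR adjusted p = 0.0045) and by 0.49 in the sums (SE 0.13, adjusted p = 0.0235), and had -0.32 with HD adapters (SE 0.13, adjusted p = 0.183). The IL call was lost without dcl1 IL replicate 2 (-0.48, adjusted p = 0.0813), and the summed call without dcl1 replicate 2 (-0.42, adjusted p = 0.188) or wt replicate 1 (-0.38, adjusted p = 0.0966).

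PSAD1 and PSAD2 encode the stromal subunit that docks ferredoxin. PSAD1 was at 1354 and 1195 CPM in dcl1 HD, 1067 and 975 in dcl1 IL, 1469 and 1375 in wt HD and 1518 and 1345 CPM in wt IL libraries. PSAD2 was at 678 and 625 CPM in dcl1 HD, 751 and 680.4 in dcl1 IL, 758 and 737 in wt HD and 1161 and 941 CPM in wt IL libraries. Both were lower in dcl1 within each adapter, by a wider margin with IL adapters, where PSAD1 fell by 0.49 (SE 0.13, edgeR adjusted p = 0.0274) and PSAD2 by 0.55 (SE 0.14, adjusted p = 0.0198). With HD adapters the folds were -0.16 and -0.20 and did not pass. Both IL calls were lost without dcl1 replicate 1 (-0.55 and -0.63), dcl1 replicate 2 (-0.42 and -0.48) or wt replicate 1 (-0.40 and -0.39). The difference between the adapters in the genotype fold, 0.33 for PSAD1 (SE 0.18) and 0.36 for PSAD2 (SE 0.19), did not pass its own test (adjusted p = 1 for both).

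The other PSI core genes did not pass. PSAE1 and PSAE2, on the stromal side beside PSAD, had -0.30 and -0.12 in the sums. PSAH1 and PSAH2, where mobile antenna docks, had -0.36 and -0.11, and the antenna-binding subunits PSAG and PSAK had -0.22 and -0.24. PSAL and PSAO had -0.17 and -0.18, and PSAN, a lumenal subunit, -0.25. The exons of PSAH1 share 49.2% of their 50-base words with the antisense locus ROPGEF13, at 217 CPM, which had a summed fold of -0.54 (edgeR adjusted p = 0.093). PSAG shares 58.8% and PSAE1 29.1% with loci that are not in the count files.

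In the PSII core no gene passed the edgeR test in any genotype contrast. At an unadjusted p under 0.05 there were 2 with HD adapters, 3 with IL adapters and 1 in the sums (15.9%, 16% and 21.7% of all loci). DESeq2 called 1 in each (6.51%, 6.51% and 10.6% of all loci). The medians were -0.03, -0.07 and -0.04, the first of which was 0.08 without wt HD replicate 1, 0.01 without dcl1 HD replicate 1 and 0.08 with library totals alone, and the last 0.03 without wt replicate 1. PSBW, a small membrane subunit, had the lowest fold with HD adapters and in the sums. It was at 2268 and 2191 CPM in dcl1 HD, 2083 and 2013 in dcl1 IL, 3021 and 2765 in wt HD and 2726 and 2568 CPM in wt IL libraries. All its dcl1 libraries were below all wt libraries, with a summed fold of -0.36 (SE 0.13, edgeR adjusted p = 0.0923). PSBY, another small subunit, had -0.47 with IL adapters (SE 0.15, adjusted p = 0.087) and -0.10 with HD adapters. Of the genes of the oxygen-evolving complex, which holds the manganese cluster in place, PSBQ2 had -0.26 in the sums. It was at 1528 and 1445 CPM in dcl1 HD and 1258 and 1234 in dcl1 IL libraries. In wt it was at 1896 and 1755 CPM with HD and 1477 and 1563 CPM with IL adapters. The other genes of that complex were nearer 0 in the sums: PSBO1 had -0.04, PSBO2 0.00, PSBP1 -0.02 and PSBQ1 0.10. PSBR, which attaches to that complex, had 0.06 and PSBX -0.22.

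Among the electron carriers, ATP synthase and PSBS, no gene passed the edgeR test in any genotype contrast, and DESeq2 called 0 as well. At an unadjusted p under 0.05 there was 1 gene in each, PSBS with HD adapters and FD2 with IL adapters and in the sums. The plastocyanin genes PETE1 and PETE2 had summed folds of 0.22 and 0.19. PETE2, the stronger of them, was at 2746 to 2923 CPM in dcl1 and 2319 to 2860.3 CPM in wt libraries, which overlap. FD2, the main leaf ferredoxin, was at 733 to 872 CPM in dcl1 against 879 to 1180.2 CPM in wt libraries; these did not overlap, and the summed fold was -0.32 (SE 0.14, edgeR adjusted p = 0.199). PETC, the Rieske protein of the cytochrome b6f complex, had -0.01 with HD and 0.24 with IL adapters. The ATP synthase genes ATPC1 and ATPD, for the gamma and delta subunits, had 0.14 and -0.03 in the sums. PSBS, the sensor protein of heat dissipation in PSII, was at 831 and 850.0 CPM in dcl1 HD and 673 and 630.5 in dcl1 IL, against 734 and 643 in wt HD and 605 and 533 CPM in wt IL libraries. PSBS was higher in dcl1 within each adapter, with 0.26 in the sums (SE 0.14, adjusted p = 0.284). Across the 48 genes, the summed fold and the log2 level per kb had a Pearson r of -0.39 and a Spearman rho of -0.29; the points share the 8 libraries.

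Shares within gene families, computed per length, compare paralogues inside 1 library and do not depend on scaling between libraries. LHCB2.3 made up 5.85% and 5.73% of LHCB2 transcripts in dcl1 HD and 4.93% and 5.14% in dcl1 IL, against 6.59% and 6.47% in wt HD and 6.11% and 6.32% in wt IL libraries. LHCB1.4 made up 11.8% and 12.2% of LHCB1 in dcl1 HD and 11.7% and 11.7% in dcl1 IL, against 13.8% and 13.9% in wt HD and 12.5% and 13.5% in wt IL libraries. In both families the dcl1 shares lay below all wt shares, so these genes differed from their paralogues as well as in level. The share of PSBQ1 in PSBQ was 40.0% and 40.0% in dcl1 HD and 44.9% and 46.7% in dcl1 IL, against 34.9% and 34.2% in wt HD and 41.7% and 36.3% in wt IL libraries, higher in dcl1 within each adapter. PSAH1 made up 35.7% to 39.3% of PSAH in dcl1 and 38.9% to 43.5% in wt libraries, and PSAE1 69.7% to 71.8% of PSAE in dcl1 and 72.2% to 76.5% in wt libraries. PSBO1 made up 77.7% to 79.1% of PSBO in dcl1 and 78.1% to 80.4% in wt libraries, and PETE2 88.2% to 90.3% of plastocyanin in dcl1 and 89.0% to 89.9% in wt libraries, with wide overlap. No test was made on these shares.

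The shares of PSAD1 and LHCB4.1 split by adapter. PSAD1 made up 62.8% and 61.7% of PSAD in dcl1 HD against 54.5% and 54.7% in dcl1 IL, and 62.0% and 61.1% in wt HD against 52.4% and 54.7% in wt IL libraries. LHCB4.1 made up 66.7% and 68.2% of LHCB4 in dcl1 HD against 63.8% and 62.5% in dcl1 IL, and 66.3% and 64.3% in wt HD against 56.996% and 59.4% in wt IL libraries. In both families the HD share was the higher in each genotype. The LHCB4.1 share was also the higher in dcl1 within each adapter. The PSBQ1 share given above was the lower with HD adapters in each genotype.

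**Figure D4:**
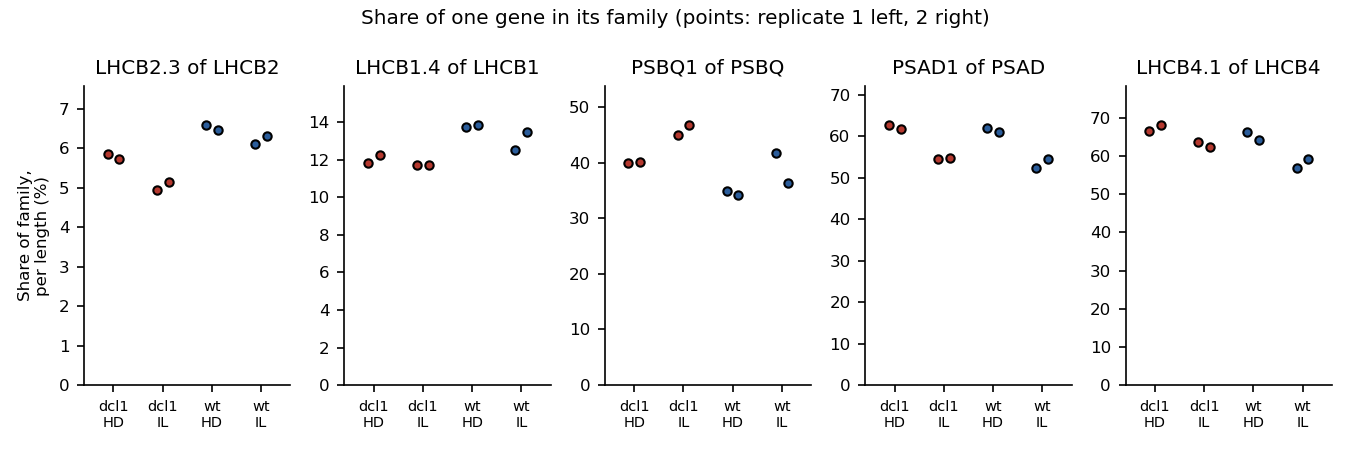
Share of 5 genes in the transcripts of their family, per length (percent), in each library, with dcl1 in red left of wt in blue and replicate 1 left of replicate 2. LHCB2.3 and LHCB1.4 have lower shares in dcl1 than in wt, PSBQ1 has higher shares in dcl1 within each adapter, and PSAD1 and LHCB4.1 have higher shares with HD than with IL adapters.

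Beyond the 48, carbon fixation, chlorophyll synthesis and 23 further light-reaction genes had more positive than negative folds. Of 16 genes of carbon fixation, the summed median was 0.23 with 15 positive, and TKL1 and FBA1 passed; of all loci 50.6% were positive and 4.3% passed as higher. TKL1, a transketolase of the Calvin cycle, was at 1650.5 and 1703 CPM in dcl1 HD, 1757 and 1654 in dcl1 IL, 1234 and 950.3 in wt HD and 1124 and 938 CPM in wt IL libraries. It rose by 0.67 in the sums (SE 0.14, edgeR adjusted p = 0.00457), and FBA1, a plastid aldolase, rose by 0.54 (SE 0.16, adjusted p = 0.0461). FBA1 was at 618 to 844 CPM in dcl1 libraries. In wt libraries it was at 503 and 381 CPM with HD and 664 and 445 CPM with IL adapters, so the genotypes overlap. At every carbon fixation gene wt replicate 1 exceeded wt replicate 2 with each adapter. Folds of the lists beyond the 48 are not given without a wt replicate. Of 15 genes of chlorophyll synthesis the median was 0.23 with 14 positive, and PORA (0.96), DVR (0.63) and CHLG (0.52), which act in late steps of the pathway, rose. Of the 23 further light-reaction genes the median was 0.15, with 17 positive and 6 negative. This list holds genes of the same kinds as the 48, such as LHCB7, PSAP, FD1 and ATPG. FD1, a minor leaf ferredoxin, rose by 0.58 (SE 0.16, edgeR adjusted p = 0.0297). Of 14 regulators of photosynthesis genes the median was 0.06; SIG6, a plastid sigma factor, rose by 0.54, PIF4, a phytochrome-interacting factor, fell by 0.51, and CGA1, a GATA factor at under 10 CPM that was named after its values were seen, fell by 1.55. The medians of these lists describe the same libraries and were not tested.

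The second comparison asks what the adapters change in the same RNA. In the model without a term for replicate number, no gene passed the edgeR test between HD and IL adapters within a genotype. Of all loci 0.174% passed in dcl1 and 0.251% in wt, and DESeq2 called 0 of the 48 in both. With the replicate number as a block, 43.8% of the 48 genes passed in dcl1 (1.41% of all loci) and 27.1% in wt (0.948%). That a number marks 1 RNA sample is not stated. HD was the lower at 28 of 48 genes in dcl1 (50.4% of all loci) and at 31 of 48 in wt (49.8%), but at 20 in wt without wt HD replicate 2 and at 17 without wt IL replicate 1. At an unadjusted p under 0.05 there were 17 genes in dcl1 (6.83% of all loci) and 9 in wt (4.53%). With both genotypes in 1 model, 6 of 48 passed: PSBP1 and PSBX rose and LHCA1, PSAK, LHCB4.2 and LHCB1.3 fell with HD adapters, whereas 0.492% of all loci passed, 0.425% higher and 0.0666% lower. The median of the 48 genes in that model was -0.04.

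LHCA1 was at 4077 and 4148 CPM in dcl1 HD against 5316 and 5575 in dcl1 IL, and at 5786 and 4874 in wt HD against 8033 and 6798 CPM in wt IL libraries. HD was lower in each genotype, and LHCA1 fell by 0.44 (SE 0.08, edgeR adjusted p = 0.00585), a call that held without any one library and under all other settings tried. PSAK, a PSI core subunit, was at 1686 and 1620.0 CPM in dcl1 HD against 2198 and 2148 in dcl1 IL, and at 2063 and 1823 in wt HD against 2777 and 2352 CPM in wt IL libraries. All its HD libraries were below all IL libraries (1.64% of all loci), and it fell by 0.40 (SE 0.08, adjusted p = 0.0249). LHCB1.3, at 23785 to 29516 CPM with HD against 30357 to 34552 CPM with IL adapters, fell by 0.32 (SE 0.07, adjusted p = 0.0314), and LHCB4.2, at 2104 to 2594 against 2611 to 3673 CPM, fell by 0.39 (SE 0.09, adjusted p = 0.04). For both the ranges did not overlap. PSBS had 0.32 (SE 0.09, adjusted p = 0.179) and PETC -0.20 (adjusted p = 0.53) and did not pass.

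PSBP1, of the oxygen-evolving complex, was at 2931 and 3046 CPM in dcl1 HD against 2299.8 and 2243 in dcl1 IL, and at 3243 and 2795 in wt HD against 2576 and 2200.4 CPM in wt IL libraries. PSBX, a small PSII subunit, was at 1712 and 1934 CPM in dcl1 HD against 1481 and 1303 in dcl1 IL, and at 2106 and 2053 in wt HD against 1691 and 1594 CPM in wt IL libraries. For both, every HD library exceeded every IL library (2.22% of all loci). PSBP1 rose by 0.37 (SE 0.08, edgeR adjusted p = 0.04) and PSBX by 0.36 (SE 0.08, adjusted p = 0.0467). With libraries left out in turn, PSBX passed only without wt IL replicate 1 and otherwise had edgeR adjusted p from 0.0533 to 0.206. PSBP1 passed only without wt HD replicate 2 or wt IL replicate 1. Neither passed with size factors of the RLE method or with library totals alone. LHCB1.3 passed only without wt HD replicate 1 or wt IL replicate 2. PSAK was lost without dcl1 HD replicate 2, dcl1 IL replicate 1, wt HD replicate 2 or wt IL replicate 1, at folds from -0.35 to -0.40. LHCB4.2 kept its call only without dcl1 IL replicate 1, wt HD replicate 1 or wt IL replicate 2, and lost it with library totals alone.

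By complex, 5 of 6 PSI antenna genes and 11 of 14 PSII antenna genes were lower with HD adapters in both genotypes, while 6 of 9 PSII core genes were higher in both. PSI core genes divided evenly, with 4 of 12 lower and 4 of 12 higher in both. In wt the PSII antenna count of negative adapter folds was 11 of 14, but 5 without wt HD replicate 2 or without wt IL replicate 1, and the PSII core median of 0.05 in wt was -0.07 with library totals alone and -0.03 without wt HD replicate 1. Over the 48 genes the adapter fold in dcl1 and that in wt had a Pearson r of 0.74 and a Spearman rho of 0.75, and 39 of 48 had the same sign. Over 9015 loci of at least 10 CPM the values were r 0.36 and rho 0.27. Points share the 8 libraries and, within a family, sequence. The adapter fold had an r of -0.31 with the GC content of exons and of -0.13 with exon length over the 48 genes.

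**Figure D5:**
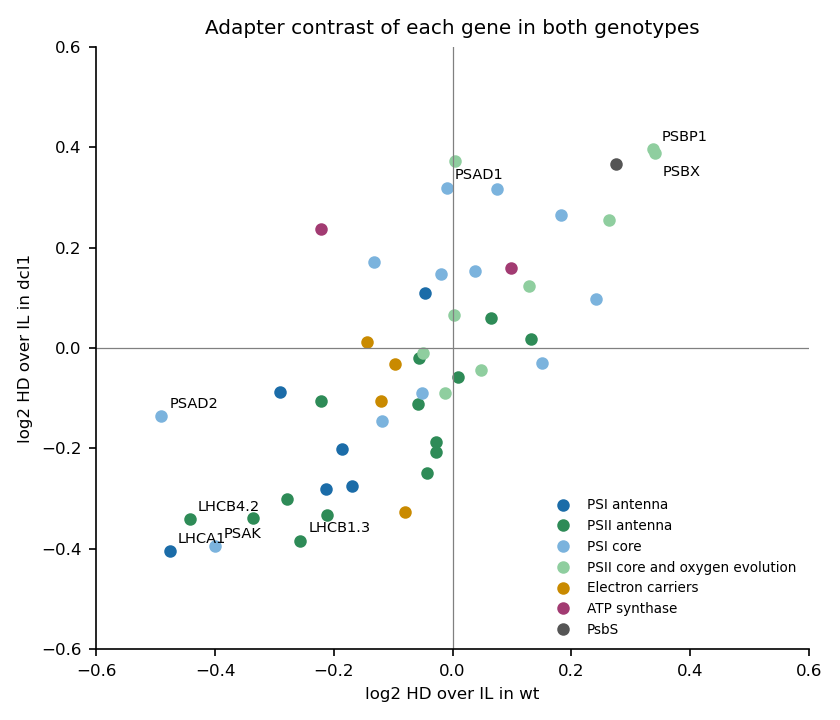
Log2 fold change of HD over IL adapters in dcl1 (vertical) and in wt (horizontal) for each of the 48 genes, coloured by complex; labels mark the genes that passed with both genotypes in 1 model, and PSAD1 and PSAD2. The points run from LHCA1, lower with HD in both genotypes, to PSBP1 and PSBX, higher in both (r 0.74).

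The difference between the genotype folds of the adapters was tested as an interaction. No gene of the 48 passed by edgeR or by DESeq2, and 0 had an unadjusted p under 0.05, where 3.17% of all tested loci did and 0.0256% passed after adjustment. The largest interaction folds were 0.46 for ATPD (SE 0.25), 0.37 for PSBY (SE 0.21) and 0.36 for PSAD2 (SE 0.19), each with an edgeR adjusted p = 1. Genes called with 1 adapter and not the other, such as LHCB1.4 or PSAD1, were therefore not shown to differ between adapters in their response to genotype.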

How the data were processed

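Total RNA from leaves was taken with Tri-reagent, and messenger RNA was picked with oligo-dT beads, per the labels' protocols. The authors deposited whole-number read counts per locus for each of the 8 libraries, without a header; loci absent from a file were set to 0. The genome build was TAIR10, per the submitters' processing notes; how reads were aligned and counted, on which strand, and what became of reads matching several loci is not given in the sources used here, so paralogues and overlapping genes may share reads. Of 22546 loci, 22444 were matched by identifier to the TAIR10.1 annotation of RefSeq, which gave positions, names and the union length of exons.

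The 48 genes and the gene lists were chosen with earlier results of these data known. Counts were tested with edgeR 4.0.16 in R 4.3.3 (quasi-likelihood F test, filterByExpr, TMM scaling) over all loci, with Benjamini-Hochberg adjustment over all tested loci and a threshold of 0.05. Genotype within adapter, adapter within genotype and their interaction came from a group-mean model of the 8 libraries, and the adapter difference over both genotypes from an additive model. Both models treat the 8 libraries as independent, although they stem from 4 RNA samples. Their p-values do not take this into account. In the sums, the HD and IL libraries of the same genotype and number were added, giving 4 samples; that a number marks 1 RNA sample is not stated. The SE of a log2 fold change is its size divided by the square root of F and is approximate. Alternatives were DESeq2 1.42.0, RLE factors, library totals alone, no filter, only the 4 libraries of a contrast, no ribosomal RNA loci, scaling on other loci, a replicate block and each library left out.

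The named genes were those called in any contrast, the highest and the most changed of each complex, all members of paralogue families, and genes of the other lists called between genotypes at 10 CPM or more on average. Shared sequence is the percent of 50-base words of a gene's exons that also occur in exons of another gene. Motifs were searched on both strands from 250 bases before to 50 after the start; the 250 before it are printed. The deposited values are read counts per locus without molecular identifiers, so counting intervals are not given and precision rests on the spread between libraries. The tests were tried on simulated counts first.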

Additional observations from a re-analysis of the deposited data

How the results depend on the processing

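Leaving out 1 library or sum at a time, the number of the 48 genes called ran from 1 to 8 (dcl1 against wt, HD), 2 to 8 (IL), 1 to 11 (sums), 0 to 3 (HD against IL, wt), 0 to 1 (HD against IL, dcl1), 1 to 6 (HD against IL, both genotypes) and 0 to 0 (interaction). The medians ran, in that order, from -0.25 to -0.090, -0.24 to -0.076, -0.25 to -0.10, -0.18 to 0.060, -0.082 to -0.032, -0.099 to -0.0020 and -0.075 to 0.13. With library totals alone the counts were 2 (dcl1 against wt, HD, 4.63% of all loci), 14 (IL, 4.14%), 1 (adapters, wt, 0.22%) and 3 (adapters, both genotypes, 0.405%). The medians were then -0.082 (HD), -0.25 (IL), -0.17 (adapters, wt) and 0.20 (interaction). This scaling moved the median of all loci by -0.12 for the adapters in wt and by 0.18 for the interaction. With no filter the counts were 7 (HD, 5.91% of all loci), 10 (IL, 5.5%), 8 (sums, 10.6%) and 1 (adapters, wt, 0.373%). In the sums DESeq2 called 10 (10.6% of all loci). In place of the sums, the mean of the within-adapter contrasts called 17 (11.4% of all loci). That fit counts the 8 libraries as independent, although they stem from 4 RNA samples. For the adapters, 1 gene was called in wt without the ribosomal RNA loci (0.245% of all loci), and 1 in dcl1 with only the 4 libraries of the contrast (0.158%). The causes of these moves were not tested. Scaling on loci other than the 48, chosen after seeing the data, moved no count or median. Fits on 4 libraries could not be run for the sums, both genotypes and the interaction. Over the 19 called folds, 286 values under alternatives held 228 that still passed, 58 that no longer passed and 0 of opposite sign.

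With the replicate number as a block the counts were 8 (dcl1 against wt, HD; 5.71% of all loci), 12 (IL; 5.74%), 5 (sums; 11%), 13 (adapters, wt; 0.948%), 21 (adapters, dcl1; 1.41%), 15 (adapters, both genotypes; 1.19%) and 0 (interaction; 0.184%), with no median moved beyond the replicate spread. The design text says that both kinds of library came from the same RNA but not that a number marks an RNA sample. The differences between replicates correlated between HD and IL at r = 0.29 in wt and 0.095 in dcl1 over 9015 loci, and at 0.74 and 0.068 over the 48 genes.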
